A study of Mus musculus with 6 samples.

Results

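The pyruvate dehydrogenase complex and its regulators were examined in OS3 glial cells with and without a K27M form of histone H3.3. The members were 10 genes chosen by function: the E1 subunits *Pdha1* and *Pdhb*, the E2 subunit *Dlat*, the E3 subunit *Dld*, the kinases *Pdk1*, *Pdk2*, *Pdk3* and *Pdk4*, and the mitochondrial pyruvate carrier genes *Mpc1* and *Mpc2*. They are 10 of 22911 genes named on the array, and 9 of them were among the 14898 genes tested. OS3 is a glial line immortalized with SV40, derived from newborn C3H/HeN mice. WT cells (*n* = 3) carried the empty vector, and IG27 cells (*n* = 3) carried an *H3f3a* plasmid with the K27M change. Both groups thus shared the immortalization and passed through vector transfection, and both were grown for 2 days before RNA was taken. The paper describes drug selection of clones after transfection and does not limit it to IG27 cells. The mutation and the properties of the selected cells thus cannot be told apart. Each sample was 1 single-color Agilent mouse array, and the scanner output of IG27 replicate 2 was incomplete, so its values came from the deposited table of signals and carry no background flags. The labels do not say whether the 3 samples of a group were separate cultures, so p-values measure the spread between these samples, which may be technical.

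Pyruvate enters mitochondria through the carrier, whose subunits MPC1 and MPC2 pair with each other. The pyruvate dehydrogenase complex then turns it into acetyl-CoA: E1 uses thiamine diphosphate to remove carbon dioxide, E2 passes the acetyl group on a lipoyl arm to coenzyme A, and E3 reoxidizes that arm. PDK kinases phosphorylate the E1 alpha subunit and switch the complex off, and PDP phosphatases remove the phosphate. The arrays measured RNA only, not protein, phosphorylation or flux. In bulk RNA, fewer cells expressing a gene and less RNA per cell cannot be told apart.

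Values are log2 intensities after subtracting the 75th percentile of each array, so 0 is the level of that percentile. Each gene is represented by its brightest probe. Levels of different probes were not compared. Pearson correlations over genes ran from 0.994 to 0.996 among WT arrays, were 0.997 among IG27 arrays and from 0.902 to 0.905 between the groups. At an adjusted *P* under 0.05 in limma, 70.5% of all genes tested were called, 30.5% higher and 40% lower in IG27 cells. The median log2 fold change over all genes was -0.07, with quartiles of -0.54 and 0.37. The groups did not overlap in 75.7% of genes. For *H3f3a*, the gene on the plasmid, IG27 minus WT was -0.26 (log2, SE 0.08, adjusted *P* = 0.0237). Whether its probe reads the plasmid transcript was not tested. Of 17 glial markers, 14 were well above background on every complete WT array and 17 on every complete IG27 array, and 8 were called higher and 7 lower in IG27 cells. *Aldh1l1* and *Cnp* were well above background in both groups and fell the most of these markers in IG27 cells (-1.72 and -1.52 on the log2 scale). *Gfap*, *Nes* and *Sox10* were well above background in both groups and lower in IG27 cells (-1.07, -0.50 and -0.37). *S100b* and *Pdgfra* were higher (4.93 and 2.36). *Fabp7* and *Slc1a3* were not well above background on any WT array and were at least 110-fold and at least 20.6-fold higher in IG27 cells. These bounds take the lowest signal well above background on each WT array as the level there. Both genes passed the filter through IG27 cells alone, and the bounds were not tested, so no *P* is given.

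The promoter sequences of the 3 kinase genes whose RNA was measured are shown first, because these kinases did not move in 1 direction. Each is the 250 bases before a RefSeq start, on the strand of the gene, in build GRCm38.p6. *Pdk1* and *Pdk2* have 2 RefSeq promoters each, and the one printed is the first of each, which holds the match described next; the second holds none. Capitals mark the HIF core, ACGTG or GCGTG on either strand. The first is at chr2:71872974-71873223 on the plus strand, the second at chr11:95041372-95041621 on the minus strand and the third at chrX:93832151-93832400 on the minus strand.
Pdk1: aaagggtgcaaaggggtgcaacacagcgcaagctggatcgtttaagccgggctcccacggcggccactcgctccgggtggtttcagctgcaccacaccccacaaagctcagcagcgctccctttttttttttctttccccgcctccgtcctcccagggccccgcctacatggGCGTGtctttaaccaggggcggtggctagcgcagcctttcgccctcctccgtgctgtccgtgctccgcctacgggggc
Pdk2: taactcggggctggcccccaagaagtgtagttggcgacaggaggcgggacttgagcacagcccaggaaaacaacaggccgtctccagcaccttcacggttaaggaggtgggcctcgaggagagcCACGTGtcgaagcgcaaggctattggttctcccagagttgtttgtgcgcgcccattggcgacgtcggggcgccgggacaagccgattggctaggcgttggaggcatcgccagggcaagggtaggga
Pdk3: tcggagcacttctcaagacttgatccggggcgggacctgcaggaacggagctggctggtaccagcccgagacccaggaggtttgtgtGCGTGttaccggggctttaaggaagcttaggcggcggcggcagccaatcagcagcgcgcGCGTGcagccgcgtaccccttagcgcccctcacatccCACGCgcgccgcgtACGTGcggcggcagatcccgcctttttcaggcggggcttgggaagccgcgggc

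The HIF core stood once in the first *Pdk1* promoter, 78 bases before the start. In *Pdk2* the matches at 126 and 125 bases lay on opposite strands of 1 palindrome. *Pdk3* held matches at 163, 104, 67 and 53 bases. It was thus present in a promoter of *Pdk1* and *Pdk3*, which were higher in IG27 cells, in *Pdk2*, which was lower, and in *Pdk4*, which was not detected. Over all members it was in 8 of the 13 promoters that RefSeq gives for the 10 genes, against 38.6% of all 32851 promoters of the same length. By gene it was in 8 of 10 members, against 41.5% of 27025 genes. The promoters were not matched for their content of G and C, and enrichment was not tested. *Dlat* and *Dld* held none in this window. The NRF1 core GCATGCG was in 1 member promoter, that of *Pdhb*, against 3.02% of all promoters, and the ERR site AAGGTCA was in 0 of 13, against 4.08%. These are matches of letters on both strands and do not show that a factor binds.

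All 9 members that could be tested were called, 4 higher and 5 lower in IG27 cells, and the groups did not overlap in any of them. With 70.5% of all genes called and 75.7% not overlapping, a call by itself says little about a member, and the sizes and directions are the description. The median log2 fold change of the members was -0.26, and none reached 2-fold, against 23.1% of all genes that were both called and at least 2-fold. The members of 1 role did not share a direction, apart from the 2 E1 subunits.

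**Figure D1:**
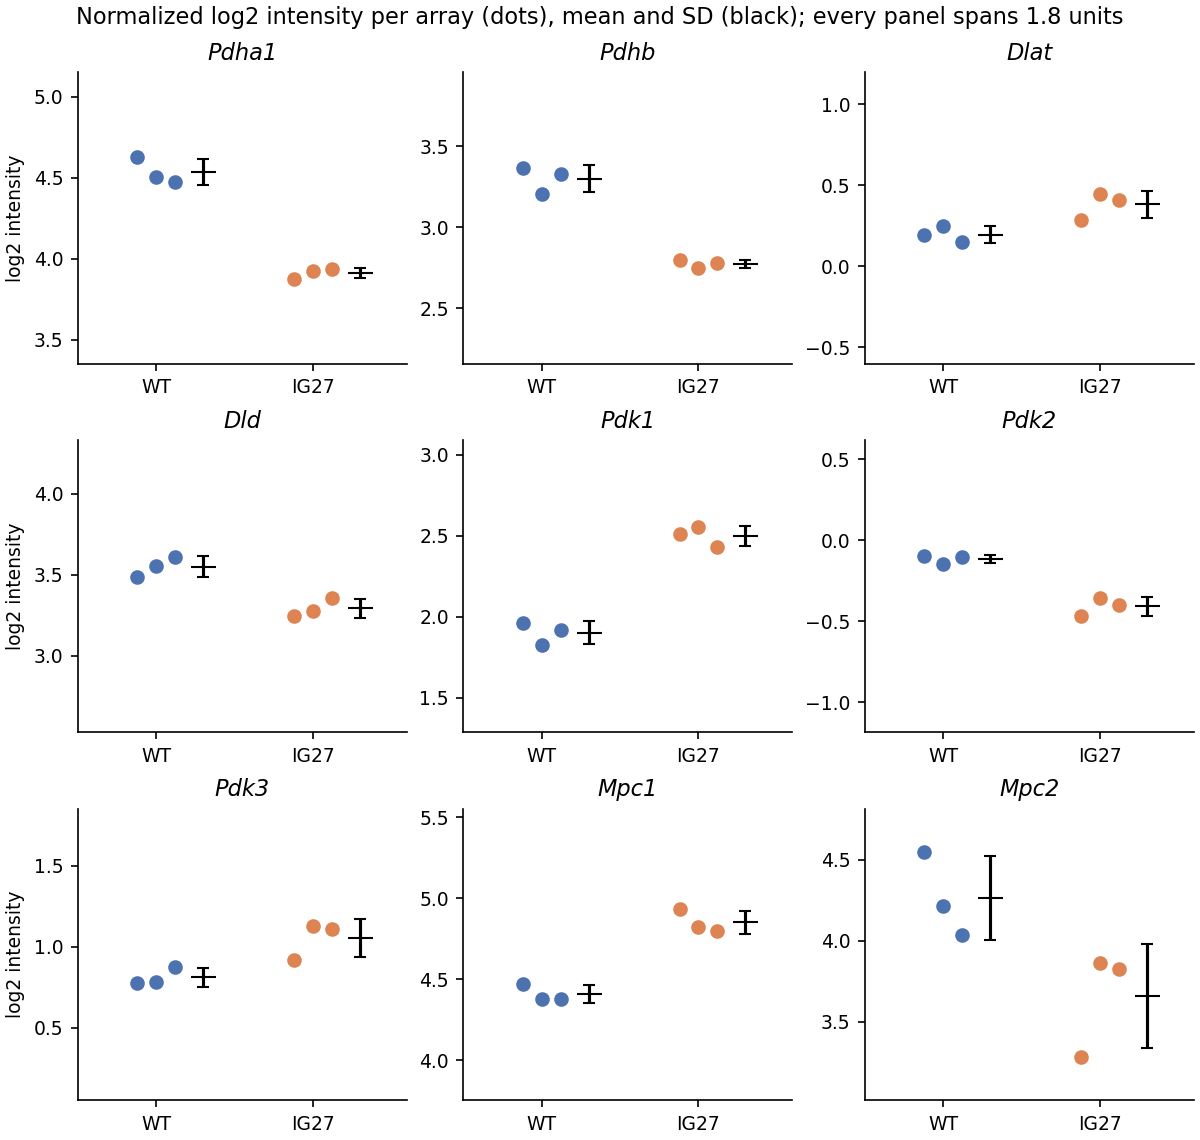
Normalized log2 intensity of the 9 tested members on each of 3 WT (blue) and 3 IG27 (orange) arrays, with the mean and SD in black; every panel spans the same height. *Pdha1*, *Pdhb*, *Pdk1* and *Mpc1* stand far apart between groups relative to their spread, whereas *Mpc2* spreads widely within both groups.

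Both E1 genes were lower in IG27 cells. *Pdha1*, which encodes the E1 alpha subunit that the kinases phosphorylate, was at 4.63, 4.51 and 4.47 in WT cells and at 3.88, 3.92 and 3.94 in IG27 cells. Every IG27 array lay below every WT array, a 1.54-fold lower level (log2 fold change -0.62, SE 0.06, adjusted *P* = 1.32e-04). *Pdhb*, the E1 beta subunit, was at 3.37, 3.20 and 3.33 in WT cells and at 2.79, 2.75 and 2.78 in IG27 cells. It was 1.44-fold lower (log2 fold change -0.53, SE 0.06, adjusted *P* = 2.94e-04). The 2 subunits form 1 enzyme, and their ratio within each array can be read without any scaling between arrays. Set to 0 at the WT mean, *Pdha1* over *Pdhb* changed by -0.10 on the log2 scale (SE 0.06), with overlapping groups (exact permutation *P* = 0.3, two-sided).

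*Dlat*, the E2 core subunit, was at 0.19, 0.25 and 0.15 in WT cells and at 0.29, 0.45 and 0.41 in IG27 cells. The brightest probe was called higher, by 1.14-fold (log2 fold change 0.19, SE 0.06, adjusted *P* = 0.0343). The other *Dlat* probe read -0.40, -0.49 and -0.51 in WT cells and -0.35, -0.50 and -0.58 in IG27 cells, which overlap, and its log2 fold change was -0.01 (95% confidence interval -0.19 to 0.17). The *Dlat* call was lost without WT replicate 1 (0.18, adjusted *P* = 0.0805), WT replicate 3 (0.16, adjusted *P* = 0.101), IG27 replicate 2 (0.15, adjusted *P* = 0.106) or IG27 replicate 3 (0.17, adjusted *P* = 0.0935), and scaling by array medians turned its direction (-0.05). Even so, *Dlat* did not follow the fall of E1. *Dlat* over *Pdha1* within an array rose by 0.81 on the log2 scale (SE 0.06). All IG27 arrays were between 0.75 and 0.86 and all WT arrays between -0.10 and 0.08. The exact permutation *P* was 0.1 (two-sided), the smallest that 3 against 3 arrays can give. With *Dlat* higher and *Pdha1* lower on every IG27 array, separation of their ratio was fixed beforehand. It is no further support.

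*Dld*, the E3 dehydrogenase that is shared with the other 2-oxoacid dehydrogenase complexes, was at 3.49, 3.55 and 3.61 in WT cells and at 3.25, 3.27 and 3.36 in IG27 cells. It was 1.20-fold lower (log2 fold change -0.26, SE 0.06, adjusted *P* = 0.00751). Its call was lost under quantile normalization (-0.09, adjusted *P* = 0.247). It was also lost under normexp background correction (-0.15, adjusted *P* = 0.0994). That setting includes quantile normalization and leaves out IG27 replicate 2, so the 2 losses are not separate.

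The kinases moved apart. *Pdk1* was at 1.96, 1.82 and 1.92 in WT cells and at 2.51, 2.55 and 2.43 in IG27 cells. All IG27 arrays were above all WT arrays, by 1.51-fold (log2 fold change 0.60, SE 0.06, adjusted *P* = 1.94e-04). Of its 4 probes, 3 were called, each higher in IG27 cells (0.60, 0.54 and 0.78 on the log2 scale), where 69.7% of all probes tested were called. The remaining probe, at a signal of 172 to 290, gave 0.06 (95% confidence interval -0.34 to 0.46), with overlapping groups. The called probe with 0.78 was dimmer still, at 59 to 152.

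*Pdk2*, an isoform found in most tissues, was at -0.10, -0.15 and -0.11 in WT cells and at -0.47, -0.35 and -0.40 in IG27 cells. It was 1.22-fold lower (log2 fold change -0.29, SE 0.05, adjusted *P* = 0.00245), with no overlap. *Pdk3* was at 0.77, 0.78 and 0.88 in WT cells and at 0.92, 1.13 and 1.11 in IG27 cells. It was 1.18-fold higher (log2 fold change 0.24, SE 0.07, adjusted *P* = 0.0258). IG27 replicate 1 came within 0.04 of WT replicate 3, and the *Pdk3* call was lost without WT replicate 1 (0.22, adjusted *P* = 0.07125), WT replicate 2 (0.23, adjusted *P* = 0.07095), IG27 replicate 2 (0.20, adjusted *P* = 0.0824) or IG27 replicate 3 (0.21, adjusted *P* = 0.0788), and under median scaling (0.00, adjusted *P* = 0.982).

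*Pdk4*, the isoform known for its induction in fasting, was not well above background on any of the 5 complete arrays. Its processed signal was 4.42, 5.68 and 3.99 in WT cells and 6.15, 5.45 and 5.97 in IG27 cells, whereas the lowest signal well above background ran from 15.3 to 27.3 per array. *Pdk4* was therefore not tested, and no fold is given. Within arrays, *Pdk1* over *Pdk2* rose by 0.89 on the log2 scale (SE 0.05), from between -0.05 and 0.04 in WT cells to between 0.82 and 0.96 in IG27 cells. *Pdk1* over *Pdk3* rose by 0.35 (SE 0.09). Neither pair overlapped between groups (exact permutation *P* = 0.1 for each, two-sided, the smallest possible). For *Pdk1* over *Pdk2* this follows from the genes themselves, which separated in opposite directions, and is no further support.

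The carrier genes moved in opposite directions. *Mpc1* was at 4.47, 4.38 and 4.38 in WT cells and at 4.93, 4.83 and 4.80 in IG27 cells, 1.36-fold higher (log2 fold change 0.44, SE 0.06, adjusted *P* = 6.97e-04). Its second probe gave 0.35. *Mpc2* was at 4.55, 4.21 and 4.03 in WT cells and at 3.28, 3.86 and 3.83 in IG27 cells, 1.52-fold lower (log2 fold change -0.61, SE 0.20, adjusted *P* = 0.0337). WT replicate 1 was high and IG27 replicate 1 low for *Mpc2*, and its SE was the widest among the members. The *Mpc2* call was lost without WT replicate 1 (-0.46, adjusted *P* = 0.0832), WT replicate 2 (-0.63, adjusted *P* = 0.0676) or IG27 replicate 1 (-0.42, adjusted *P* = 0.0692). *Mpc1* over *Mpc2* within an array rose by 1.05 on the log2 scale (SE 0.26). WT arrays were between -0.22 and 0.20 and IG27 arrays between 0.816 and 1.502 (exact permutation *P* = 0.1, two-sided, the smallest possible). This separation too follows from the genes themselves, which separated in opposite directions, and is no further support.

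**Figure D2:**
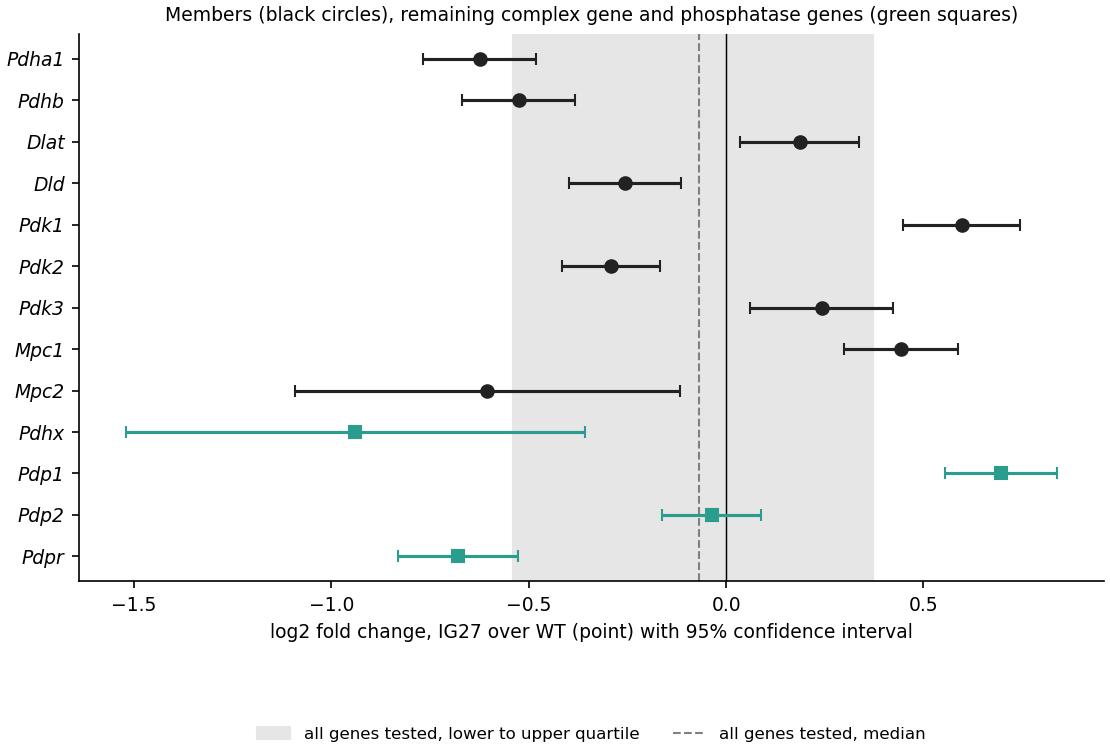
Log2 fold change, IG27 over WT, with its 95% confidence interval for 9 members (black circles) and 4 further genes of the complex and its phosphatases (green squares). The gray band spans the quartiles of all genes tested, -0.54 to 0.37, and 4 members, *Pdha1*, *Pdk1*, *Mpc1* and *Mpc2*, lie outside it.

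The rest of the complex and its phosphatases were read from a list of 5 genes, of which 4 were tested, 1 was higher, 2 were lower and the median log2 fold change was -0.36. *Pdhx*, the E3-binding protein, was at 1.25, 1.22 and 1.29 in WT cells and at 0.66, -0.26 and 0.54 in IG27 cells. It was 1.92-fold lower (log2 fold change -0.94, SE 0.24, adjusted *P* = 0.0122). IG27 replicate 2 was far below the other IG27 arrays, and without it the log2 fold change was -0.66 (adjusted *P* = 6.52e-04). Under normexp, which also left out IG27 replicate 2, it was -0.55. *Pdp1*, a catalytic phosphatase subunit, rose by 0.70 on the log2 scale (SE 0.06, adjusted *P* = 7.99e-05), and its second probe gave 0.78.

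*Pdpr*, the regulatory phosphatase subunit, was lower (log2 fold change -0.68, SE 0.06, adjusted *P* = 1.21e-04). Its other, dim probe gave -0.31 (95% confidence interval -0.88 to 0.26). *Pdp2*, the second catalytic subunit, had a log2 fold change of -0.04 (95% confidence interval -0.16 to 0.09, adjusted *P* = 0.541). Its brightest probe was at a signal of 52115 to 59322 on all arrays. The second probe was at 281 to 329 and was called lower, with no overlap (-0.20, limma over all probes tested, adjusted *P* = 0.0168). The 2 probes of *Pdp2* thus did not give the same result. *Pdha2*, the testis form of E1 alpha, was not well above background on any complete array. Kinase and phosphatase RNAs both held a gene that rose, *Pdk1* and *Pdp1*, and both held a gene that fell, *Pdk2* and *Pdpr*.

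**Figure D3:**
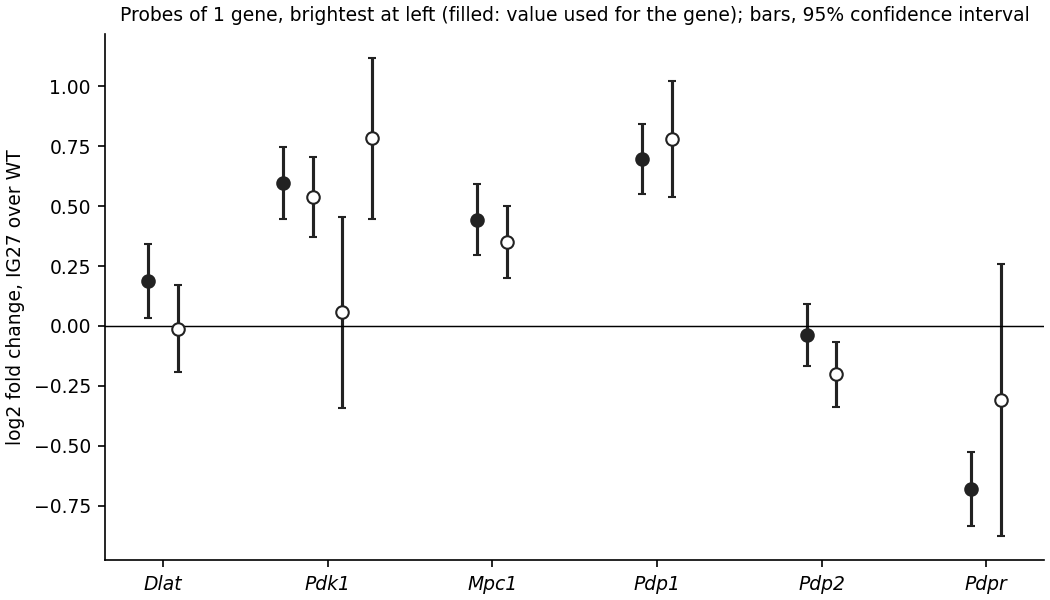
Log2 fold change, IG27 over WT, with its 95% confidence interval for every tested probe of the 6 genes with several probes; the filled point is the brightest probe, which gave the value of the gene. The probes of *Mpc1* and *Pdp1* lie on 1 side of 0, whereas 1 probe each of *Dlat*, *Pdk1*, *Pdp2* and *Pdpr* has an interval that spans 0.

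The lipoyl arm and the cofactors of the complex were read from 14 genes, of which 13 were tested, 3 were higher and 8 lower. Their median log2 fold change was -0.44, against -0.07 over all genes. Over all genes 30.5% were called higher and 40% lower. These shares and the median of -0.07 stand beside the counts of every list below, and no list was tested as a set. *Slc19a2*, a thiamine transporter of the cell surface, was higher by 0.72 on the log2 scale (adjusted *P* = 3.23e-05). *Pank2*, a kinase at the first step of coenzyme A synthesis, was lower (-1.21, adjusted *P* = 2.8e-05). *Lias*, the lipoyl synthase, was higher by 0.45 (adjusted *P* = 0.00189; 0.22 under median scaling, adjusted *P* = 0.0588).

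The neighboring routes of pyruvate and acetyl-CoA were read from 16 genes, all tested, of which 4 were higher and 8 lower with a median of -0.21. *Pcx*, which carboxylates pyruvate to oxaloacetate, was higher by 0.95 on the log2 scale (adjusted *P* = 9.57e-06), and *Gpt2*, which exchanges pyruvate and alanine, was higher by 0.85 (adjusted *P* = 2.59e-05). *Ldhb*, a lactate dehydrogenase subunit, was lower (-2.37, adjusted *P* = 3.18e-07), whereas *Ldha*, the other lactate dehydrogenase gene in the list, was higher by 0.54 (adjusted *P* = 2.45e-04). *Acss1*, which makes acetyl-CoA from acetate in mitochondria, was lower (-1.71, adjusted *P* = 1.07e-06). *Pcx* uses the same pyruvate as the complex, and its RNA was higher while that of both E1 subunits was lower. A link between these changes was not tested, and the use of pyruvate was not measured.

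The sister complexes, which oxidize other 2-oxoacids or glycine, were read from 11 genes, of which 9 were tested, 4 were higher and 3 lower with a median of 0.07. *Bckdhb*, the E1 beta subunit of the branched-chain complex, was higher by 0.90 on the log2 scale (adjusted *P* = 4.04e-05), opposite to *Pdhb*. *Gldc*, of the glycine cleavage system, was higher by 1.18 (adjusted *P* = 0.00199), and its partner *Gcsh* was lower (-0.86, adjusted *P* = 1.3e-04). *Dlst*, the E2 of the 2-oxoglutarate complex, was lower (-0.56, adjusted *P* = 4.45e-04), and *Ogdh*, its E1, was not called (-0.03, adjusted *P* = 0.631).

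Transcription factors known to act on the kinase genes were read from 9 genes, of which 4 were higher and 2 lower with a median of 0.45. *Myc* was higher by 1.19 on the log2 scale (adjusted *P* = 7.7e-06), *Ppara* by 0.94 (adjusted *P* = 4.51e-05) and *Hif1a*, whose protein is known to induce *Pdk1*, by 0.88 (adjusted *P* = 9.76e-06). *Foxo1*, a known activator of *Pdk4*, was lower (-0.65, adjusted *P* = 8.53e-05), and *Ppargc1a* was lower (-0.52, adjusted *P* = 8.57e-04; with the mean of its probes -0.27, adjusted *P* = 0.18). Enzymes that acylate or deacylate the complex were read from 4 genes, of which 2 were higher and 1 lower with a median of 0.25. *Sirt4*, a lipoamidase that acts on the complex, was higher by 1.05 (adjusted *P* = 5.23e-06), *Sirt3* was higher by 0.21 (adjusted *P* = 0.013; -0.03 under median scaling), and *Acat1* was lower (-1.31, adjusted *P* = 3.04e-06).

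Other values moved with the groups. Chromosomes differed in the median of their genes, and each member can be set beside the median log2 fold change of its chromosome. *Pdha1* (-0.62) is on chromosome X, where the median over 513 genes was -0.59. *Pdk3*, on the same chromosome, was higher (0.24), as were 20.1% of the genes on X by the same call. *Dlat* is on chromosome 9, with a median of -0.64, and *Pdk1* on chromosome 2, with a median of -0.34, and both had the opposite sign. *Pdhb* is on chromosome 14 (-0.28), *Dld* on 12 (-0.03), *Pdk2* on 11 (-0.12), *Mpc1* on 17 (0.16) and *Mpc2* on 1 (-0.01). Of the further genes, *Pdpr* (-0.68) and *Pdp2* (-0.04) are on chromosome 8, where the median was -0.67 and 74.3% of genes were called lower. *Pdp1* (0.70) is on chromosome 4, where the median was 0.33 and 58.4% were called higher, and *Pdhx* (-0.94) is on chromosome 2. Markers of other cell types also differed. On each array the summed level of 6 neuron markers was 4.13 to 4.31 in WT cells and 3.32 to 3.46 in IG27 cells (log2). It was 2.30 to 2.41 and 1.40 to 1.55 for 6 microglia markers, -2.54 to -2.36 and 1.38 to 1.42 for 5 endothelial markers and 6.98 to 7.01 and 6.01 to 6.12 for 6 fibroblast and mural markers. These sums are carried by few genes, and calls went both ways in each list. Of the neuron markers, 3 of 6 were tested, *Map2* was higher (-6.71, -6.19 and -5.84 in WT cells, 1.85, 1.72 and 1.77 in IG27 cells) and *Tubb3* lower (-2.63). *Map2* was not well above background on every WT array, so no fold is given. Of the microglia markers, 4 of 6 were tested. *P2ry12* was higher (0.49) and *Csf1r* and *Tmem119* were lower (-1.57 and -0.76). *Aif1* was called higher (1.66) but was not well above background on every WT array. It was at -6.37, -5.10 and -5.77 in WT cells and at -4.12, -4.02 and -4.14 in IG27 cells. Under normexp its log2 fold change was 0.39. Of the endothelial markers, 2 of 5 were tested: *Kdr*, not well above background on any WT array, was at least 135-fold higher, and *Pecam1* was lower (-0.27). Of the fibroblast and mural markers, 3 of 6 were tested. *Dcn*, not well above background on any WT array, was at least 3.32-fold higher, and *Col1a1* and *Pdgfrb* were lower (-0.92 and -1.16). *Kdr* and *Dcn* passed the filter through IG27 cells alone, and their bounds were not tested, so no *P* is given. The markers not well above background on any complete array were *Rbfox3*, *Syt1* and *Nefl* (neuron), *Ptprc* and *Cx3cr1* (microglia), *Cdh5*, *Cldn5* and *Tek* (endothelial) and *Lum* (fibroblast). The part of chromosomes and of these markers in the values of the members was not tested.

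Over 18 distinct alternatives, *Pdha1*, *Pdhb*, *Pdk1*, *Pdk2* and *Mpc1* kept their direction and their call in each. The 18 include a threshold on the unadjusted *P* of the same fit, under which a called gene could lose neither. *Pdha1*, *Pdhb* and *Pdk2* had a single probe each, so taking the mean of the probes left their log2 fold changes as they were. Scaling by the median of each array moved the median of all genes by -0.24 and so lowered every value: 27.6% of all calls were then higher in IG27 cells, against 43.3% with the 75th percentile. Under it *Pdk1* was at 0.36, *Mpc1* at 0.20 and *Pdk2* at -0.53, all called. Of the remaining 4 members, *Dlat* lost its call in 9 alternatives and turned in 1, *Pdk3* lost its call in 7, *Mpc2* in 8 and *Dld* in 3.

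**Figure D4:**
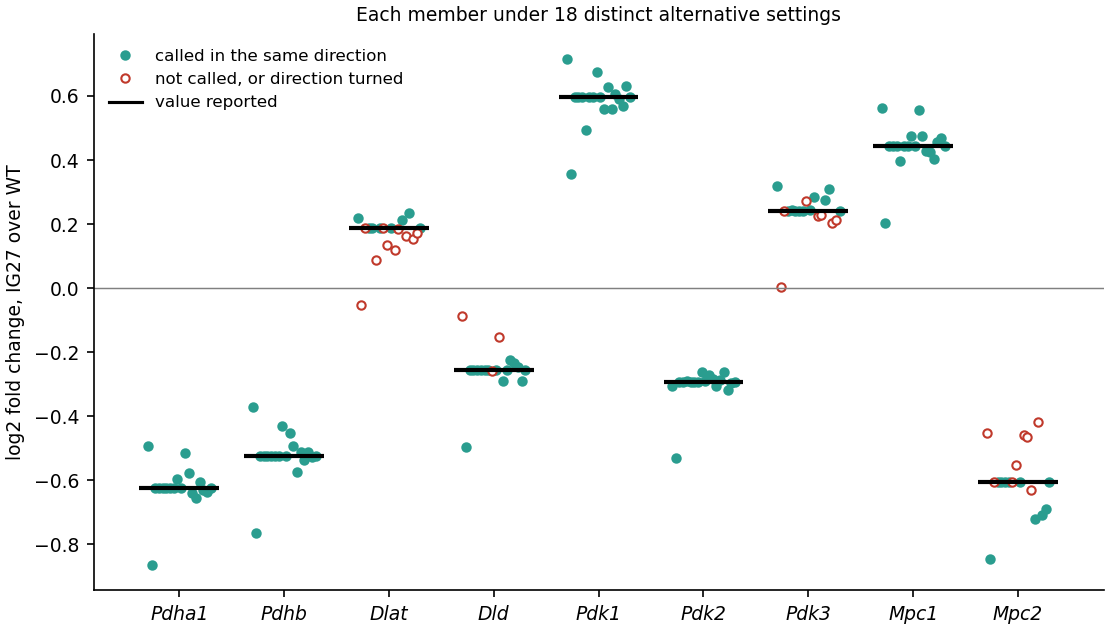
Log2 fold change, IG27 over WT, of the 9 tested members under 18 distinct alternative settings; the black line is the value reported, filled points kept the call and direction and open points did not. *Pdha1*, *Pdhb*, *Pdk1*, *Pdk2* and *Mpc1* show filled points only, whereas *Dlat*, *Pdk3* and *Mpc2* show many open ones. Under the threshold on the unadjusted *P*, every point was bound to be filled.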

How the data were processed

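RNA of 3 WT and 3 IG27 samples was hybridized to Agilent mouse arrays. The authors read the spots with Feature Extraction (9.1 per the labels, 10.7.3.1 per the file headers) and deposited the processed signal, a linear intensity, together with a table of the same intensity per probe. The scanner output of IG27 replicate 2 stops after 285 spots, so its values came from the table, which exchanges WT replicates 2 and 3 (scanner labels were kept). From the deposited intensity, log2 values minus the 75th percentile of each array were computed, without outlier spots. A probe was kept where all complete arrays of WT, of IG27 or of both flagged it well above background. Probes were named through RefSeq accessions (GRCm38.p6, names, chromosomes and promoters only), and the brightest probe per gene was used. limma 3.58.1 in R 4.3.3 tested 14898 genes (lmFit, eBayes, two-sided) with Benjamini-Hochberg adjustment at 0.05; the steps were tested on simulated data. Between 58.8% and 61.2% of probes were well above background per complete array, and the number of arrays limits the precision. All members and every further gene of the complex and its phosphatases were named, and in other lists at most 2 rises and 2 falls among the called genes with the largest change. A gene that this rule names is not reported here. *Ogdh*, *Hif1a*, *Ldha*, *H3f3a* and the markers beyond this rule were added after their values were seen, as were the within-array ratios. Members and lists were chosen with earlier results of these data known. Alternatives were other normalizations, filters, probe rules, blocks and value sources, each array left out, and an unadjusted *P* of at most 0.05. Normexp was run on median signals, since the files lack mean signals. It used the 5 complete arrays, without IG27 replicate 2, and was followed by quantile normalization. A comparison of protein sequences was planned and not run.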

Additional observations from a re-analysis of the deposited data

How the results depend on the processing

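The fit on arrays with complete scanner output is the fit without IG27 replicate 2 and was counted once. Of 162 alternative values of the members, 134 kept direction and call, 27 lost the call and 1 reversed. Among 38 other named genes, 662 of 678 values kept both. These counts include the unadjusted threshold, under which a called gene cannot lose its call. *Pecam1* (-0.27) lost its call without WT replicate 1 (-0.25), WT replicate 2 (-0.24), IG27 replicate 1 (-0.20) or IG27 replicate 2 (-0.28), among others. Under median scaling *Dlat* was at -0.0532 and *Sirt3* at -0.0257. *Pdp2*, not called at -0.04, turned to 0.0472 under quantile normalization, 0.0221 with slide row as a block and 0.004 under normexp, and was called under median scaling (-0.2767). With the slide row as a block, 5 of 9 members stayed called, as were 8946 genes; all IG27 arrays and WT replicate 2 share a row, so this fit compares IG27 with 1 WT array. In that fit *Dld* had an adjusted *P* of 0.0535 and *Pdhx* of 0.0861. Leaving out each array called 6 to 8 members and 9800 to 10145 genes. Without a filter on dim probes 6 members were called, and under normexp 6. Replicate numbers did not pair the arrays: same-numbered arrays deviated together with r of 0.0118, 0.0395 and 0.0763, and not every array correlated best with its own number. With the replicate block 10309 genes and 7 members were called, and *Dlat* (adjusted *P* = 0.05005) and *Mpc2* (0.086) were not. *Pdk4* lies below background, so these arrays give no change for it.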
